A study of Mus musculus with 8 samples.

Results

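The HOX genes of the 4T1.2 model were examined as a readout of body position in mammary tumours and in their metastases to the spine. The members were the probe sets whose single gene symbol in the platform annotation was Hoxa, Hoxb, Hoxc or Hoxd followed by a paralogue number. There were 48 such probe sets for 33 genes, of 45101 probe sets on the array. All 48 gene IDs were found in the RefSeq mouse gene table, which lists 39 HOX genes. 4T1.2 is a clonal mouse mammary carcinoma line that spreads spontaneously to bone, carried here in mice of the strain Balb/c. The primary group held 4 arrays described as tumour epithelial cells from the mammary gland, and the bone metastasis group held 4 arrays from spine metastases of the same 4 mice. Macrophage markers were bright on the primary arrays too, with values given below. The labels name no genetic change and no agent, and both groups carried the same tumour line. How the cells were sorted, how old the mice were, which gland was injected and which level of the spine was taken are not stated in the labels.

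HOX genes encode homeodomain transcription factors and lie in clusters named a to d, on mouse chromosomes 6, 11, 15 and 2. In the embryo their order along a cluster follows the order of their expression along the body, from low paralogue numbers toward the head to high numbers toward the tail. Adult fibroblasts, vertebral bone and spinal ganglia keep part of this pattern, while blood progenitors use Hoxa and Hoxb genes independently of position. In the mammary gland, genes of paralogue group 9 are known for a role in the growth of the gland. The comparison therefore sets a ventral mammary site against an axial skeletal site in one tumour line.

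Promoter windows in the RefSeq table (build GRCm38.p6) covered 19 of the 33 genes, and 3 are shown: Hoxa5, the member with the brightest single signal, and Hoxa9 and Hoxd1, which passed the test described below. Each is the 250 bases before the start of the transcript, written 5′ to 3′, with matches in capitals to the homeodomain core TAAT, the composite PBX and HOX motif TGATNNAT and the TATA box TATAAA, on both strands and with overlaps allowed. Hoxa5 lies at chr6:52204588-52204837 on the minus strand, Hoxa9 at chr6:52227371-52227620 on the minus strand and Hoxd1 at chr2:74762730-74762979 on the plus strand.
Hoxa5: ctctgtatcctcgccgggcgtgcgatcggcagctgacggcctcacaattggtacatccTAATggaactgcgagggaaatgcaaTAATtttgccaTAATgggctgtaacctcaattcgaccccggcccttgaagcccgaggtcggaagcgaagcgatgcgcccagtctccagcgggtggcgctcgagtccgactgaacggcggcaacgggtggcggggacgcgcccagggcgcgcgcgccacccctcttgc
Hoxa9: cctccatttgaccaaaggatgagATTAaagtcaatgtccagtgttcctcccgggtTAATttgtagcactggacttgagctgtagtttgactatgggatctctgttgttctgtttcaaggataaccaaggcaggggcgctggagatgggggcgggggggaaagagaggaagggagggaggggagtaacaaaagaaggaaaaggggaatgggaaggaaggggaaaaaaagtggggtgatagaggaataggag
Hoxd1: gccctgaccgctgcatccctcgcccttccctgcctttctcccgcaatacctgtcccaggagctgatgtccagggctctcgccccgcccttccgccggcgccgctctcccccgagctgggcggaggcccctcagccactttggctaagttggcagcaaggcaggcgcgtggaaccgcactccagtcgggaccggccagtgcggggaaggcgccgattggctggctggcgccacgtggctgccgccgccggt
The Hoxa5 window held 3 core motifs, the Hoxa9 window 2 and the Hoxd1 window 0, and none of the 3 held the composite motif or the TATA box. Of the 24 HOX windows of this length, 18 (75%) held the core motif, against 54.9% of all 32851 promoter windows. The composite motif was in 4 HOX windows (16.7%, against 7.68% of all) and the TATA box in 4 (16.7%, against 12.4%). CpG dinucleotides numbered 28, 3 and 24 in the windows of Hoxa5, Hoxa9 and Hoxd1, with a median of 12.5 over the HOX windows and 6 over all. These are letter matches and were not linked to binding.

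Few HOX probe sets differed between the sites. Of the 48 probe sets, 5 were higher in bone metastasis (Hoxa9, Hoxc4, Hoxc6, Hoxc8 and Hoxd1) and 1, of Hoxa3, was lower (limma with Benjamini-Hochberg adjustment over 34945 probe sets with 1 gene symbol, two-sided, adjusted p under 0.05). This is 12.5% of the members, below the 20.6% called over all probe sets tested, of which 8.72% were higher and 11.9% lower. The median log2 difference, metastasis minus primary, was 0.21 for the HOX probe sets and 0.09 for all probe sets. The median over all probe sets changed with signal level. It was 0.18 at a mean log2 signal from 4 to 5 and -0.33 from 7 to 8, and the median HOX level was 4.60. The HOX share and median were not tested against probe sets of like signal. Because both arrays of a number came from the same mouse, the mouse was also fitted as a block. The block left 2 HOX calls, Hoxa9 and Hoxc8, while 5757 of all probe sets were called against 7214 without it.

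**Figure D1:**
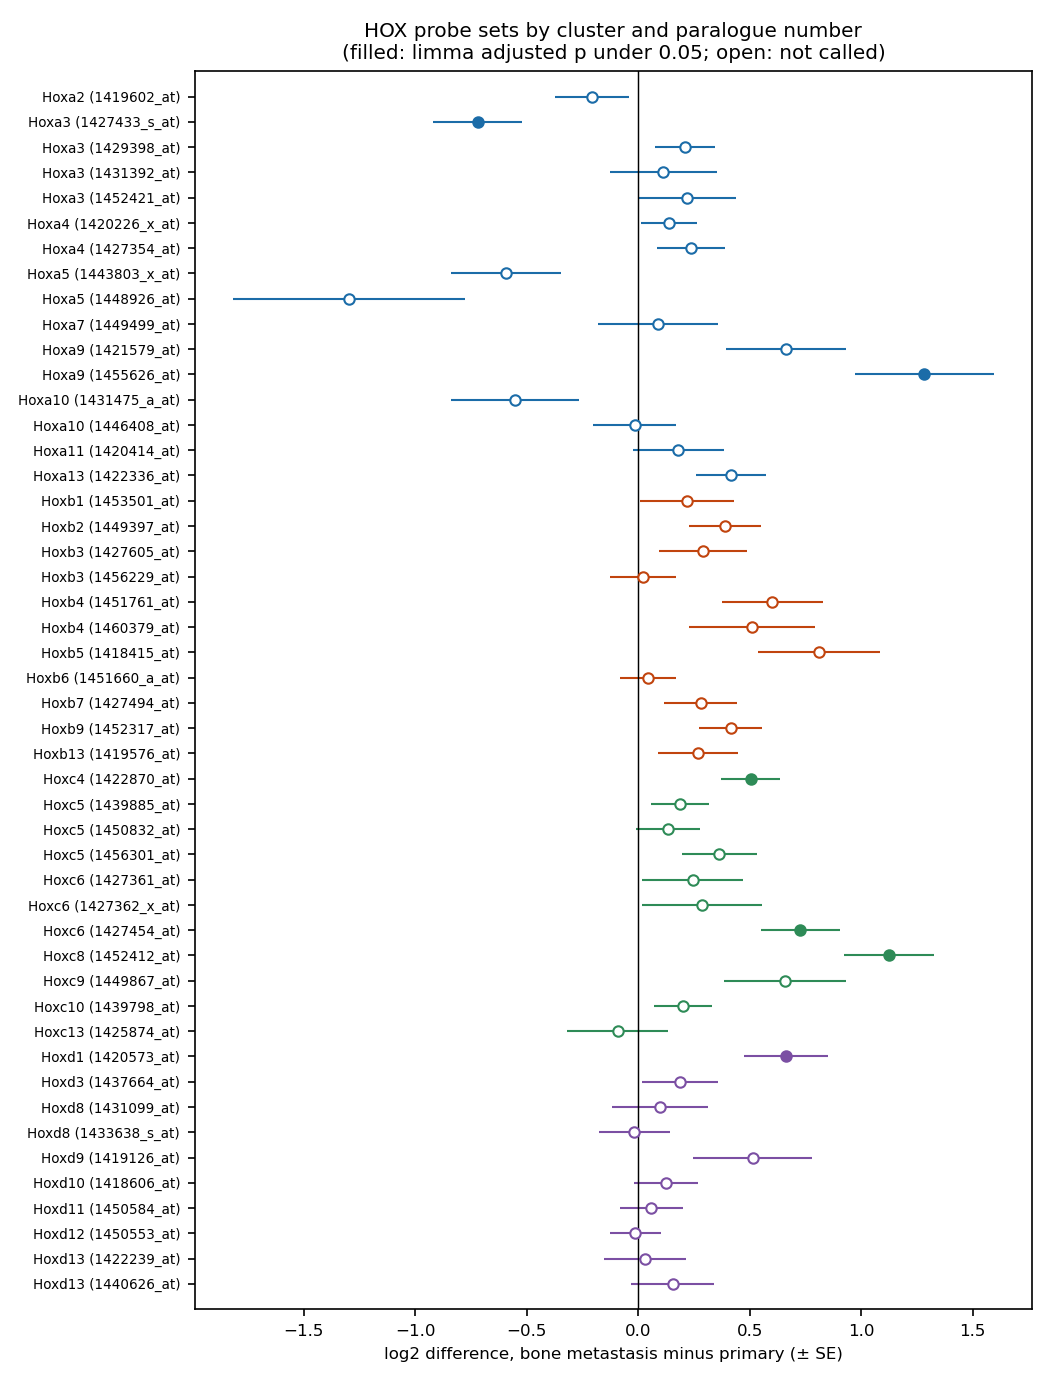
Log2 difference of each of the 48 HOX probe sets (points, bone metastasis minus primary, 4 arrays each) with its standard error (bars), ordered by cluster (colours) and paralogue number. The 6 filled points passed the test; the differences run from -1.30 for a Hoxa5 probe set to 1.28 for a Hoxa9 probe set. The calls lie at Hoxa3 and Hoxa9, at Hoxc4, Hoxc6 and Hoxc8, and at Hoxd1.

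The arrays differed between the groups in ways that touch these values. The 5′ actin control was dimmer than the 3′ one by 1.08 to 1.90 log2 units on primary arrays and by 4.55 to 6.18 on metastasis arrays, with the largest drops on metastasis arrays 3 and 4. No array carries a present or absent call, so the 80 probe sets of odorant and vomeronasal receptor genes, which tumour and bone are not known for, served as a reference for dim signal. Their 95th percentile was 5.31 to 5.41 on primary arrays and 5.41, 5.45, 6.01 and 6.18 on metastasis arrays 1 to 4. Dim signal was thus higher on metastasis arrays 3 and 4. The median HOX signal moved with it, from 4.46 to 4.67 on the primary arrays to 4.57, 4.58, 4.96 and 4.98 on metastasis arrays 1 to 4. In the median, HOX probe sets differed from the array of the same mouse by 0.02, 0.03, 0.38 and 0.58 in mice 1 to 4, and the receptor probe sets by 0.02, -0.07, 0.21 and 0.29. The part of this shift in the HOX differences was not tested.

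Against that reference 32 of the 48 HOX probe sets (66.7%) were above the receptor level on none of the 8 arrays, compared with 39.2% of all probe sets. Another 9 were above it on all 8 arrays and 7 on some. Of the 6 called probe sets, those of Hoxa3, Hoxc4, Hoxc6, Hoxc8 and Hoxd1 were in the dim class, where a log2 difference is not exact. The Hoxa9 probe set was above the reference on 1 primary and 2 metastasis arrays. No probe set above the reference on all 8 arrays was called (0 of 9 by limma, with 2 higher and 2 lower at an unadjusted p under 0.05, which 16.5% and 18.5% of all probe sets reached). Of the receptor probe sets themselves, 1 of 80 (1.25%) was called, with a median difference of 0.14.

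**Figure D2:**
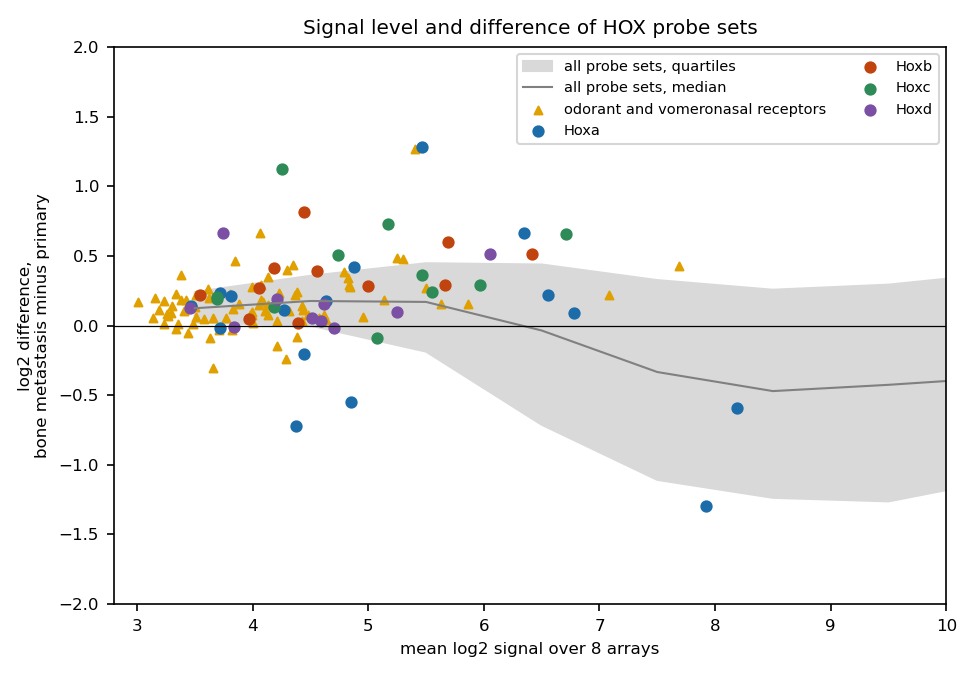
Log2 difference (bone metastasis minus primary) against the mean log2 signal over the 8 arrays for the HOX probe sets (circles, coloured by cluster), the odorant and vomeronasal receptor probe sets (triangles) and all probe sets (line for the median and band for the quartiles, in steps of 1 log2 unit). Most HOX points lie at the low signals of the receptor probe sets, and the 2 brightest, both of Hoxa5, lie below 0.

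Hoxc8, a gene of thoracic identity, gave the HOX call with the smallest adjusted p. Its log2 signal was 4.06, 3.67, 3.63 and 3.41 on primary arrays 1 to 4 and 4.59, 4.83, 4.60 and 5.25 on metastasis arrays 1 to 4. All metastasis arrays were above all primary arrays, and all 8 signals were under the receptor level of their array. The log2 difference was 1.13 (SE 0.20), a 2.18-fold rise in 4 of 4 mice (limma adjusted p = 0.00701, or 0.0322 with the mouse as a block). The call held without any single array or mouse and was lost within mice 1 and 2 alone, where the difference was 0.85 (limma adjusted p = 0.168). That smaller fit called 0 of all probe sets, so the loss is not particular to Hoxc8.

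Hoxa9, which is used by blood progenitors and in the mammary gland, had the largest HOX rise on 1 of its 2 probe sets (1455626_at). Its log2 signal was 5.44, 4.43, 4.70 and 4.73 on primary arrays 1 to 4 and 6.58, 6.55, 5.86 and 5.45 on metastasis arrays 1 to 4. The lowest metastasis array only just passed the highest primary array, and arrays 1 and 2 were the highest. Metastasis arrays 3 and 4 had the higher dim signal and the largest drops of the 5′ actin control. The part of array quality in these values was not tested. The log2 difference was 1.28 (SE 0.31), a 2.43-fold rise in 4 of 4 mice (limma adjusted p = 0.0224, or 0.0267 with the block). Without primary array 2, 3 or 4 the limma adjusted p was 0.0658, 0.0667 or 0.068, and without mouse 2 or 3 it was 0.104 or 0.108. With metastasis arrays 1 and 3 left out the adjusted p was 0.0924. The brighter probe set of Hoxa9 (1421579_at) was 6.07, 6.04, 6.10 and 5.87 on primary arrays and 6.08, 6.30, 7.29 and 7.05 on metastasis arrays. Here arrays 3 and 4 were the high ones, the reverse of the other probe set. This probe set was not called, at 0.66 (SE 0.27, limma adjusted p = 0.119), but passed without metastasis array 1, at 0.86 (0.0374). It also passed within mice 3 and 4 alone, at 1.19 (limma adjusted p = 0.0199). With metastasis arrays 3 and 4 left out it was 0.17 (0.394).

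Within the Hoxc cluster, Hoxc4 and Hoxc6, a cervical and a thoracic gene, were the other calls. Hoxc4 was 4.41, 4.60, 4.43 and 4.49 on primary arrays and 4.78, 5.08, 4.95 and 5.14 on metastasis arrays, with no overlap. The log2 difference was 0.50 (SE 0.13, higher in 4 of 4 mice, limma adjusted p = 0.0283), and it did not pass with the block (0.0726). The call of Hoxc4 was lost without any one primary array (limma adjusted p from 0.0547 to 0.0874), without any one mouse (0.0517 to 0.137), after quantile normalization (0.0606) and with metastasis arrays 3 and 4 left out (0.0607). The called Hoxc6 probe set (1427454_at) was 4.93, 4.72, 4.79 and 4.81 on primary arrays and 5.38, 5.15, 5.87 and 5.73 on metastasis arrays, again with no overlap. Its log2 difference was 0.73 (SE 0.18, 4 of 4 mice, limma adjusted p = 0.0227), and it narrowly failed with the block (0.0503). Without primary array 2, 3 or 4 the Hoxc6 call was lost (limma adjusted p = 0.067, 0.0673 and 0.0677), as it was without mouse 1, 3 or 4 (0.0515, 0.126 and 0.112) and with metastasis arrays 1 and 3 left out (0.0745).

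Hoxd1, the anterior end of the Hoxd cluster and a gene of pain-sensing neurons in mouse spinal ganglia, was 3.30, 3.43, 3.57 and 3.34 on primary arrays. It was 4.37, 3.60, 4.30 and 4.02 on metastasis arrays. Array 2 was only just above the primary range, and arrays 1 and 3 were the highest. The log2 difference was 0.66 (SE 0.19, 4 of 4 mice, limma adjusted p = 0.04), and it did not pass with the block (0.0735). The call was lost without any one primary array (limma adjusted p from 0.0748 to 0.111), without metastasis array 1, 3 or 4 (0.0658, 0.0927 and 0.0593), without mouse 1, 3 or 4 (0.141, 0.151 and 0.147) and after quantile normalization (0.0748). It also missed with array weights (0.0534) and with scaling to the array median (0.0514), by limma adjusted p. Markers of sensory ganglia were also higher in the metastases, though in another order over metastasis arrays 1 to 4 than Hoxd1. All 6 measured, among them Pirt, Prph, Avil and Isl1, rose (5 of 6 with the block), and their summed linear signal was 167 to 185 on primary arrays and 2579, 1661, 5729 and 1174 on metastasis arrays 1 to 4. Of the 6, 2 were above the receptor level on no array. The part of ganglion cells in the Hoxd1 difference was not tested.

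Hoxa3, a gene of the neck and pharyngeal arches, was the sole member called lower, on 1 of 4 probe sets (1427433_s_at). It was 4.96, 4.75, 4.67 and 4.58 on primary arrays and 4.14, 3.72, 4.49 and 3.72 on metastasis arrays, without overlap but with array 3 close to the primary range. The log2 difference was -0.72 (SE 0.20, lower in 4 of 4 mice, limma adjusted p = 0.0368), and it did not pass with the block (0.0594). The call was lost without any one primary array (0.0735 to 0.0969), without metastasis array 2 or 4 (0.0668 and 0.0706), without any one mouse (0.0511 to 0.137) and with scaling to the 75th percentile (0.201). The brightest Hoxa3 probe set (1452421_at) was 6.63, 6.32, 6.36 and 6.46 on primary arrays and 6.20, 6.45, 6.78 and 7.22 on metastasis arrays. Those groups overlapped, and the log2 difference was 0.22 (SE 0.22, limma adjusted p = 0.5).

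**Figure D3:**
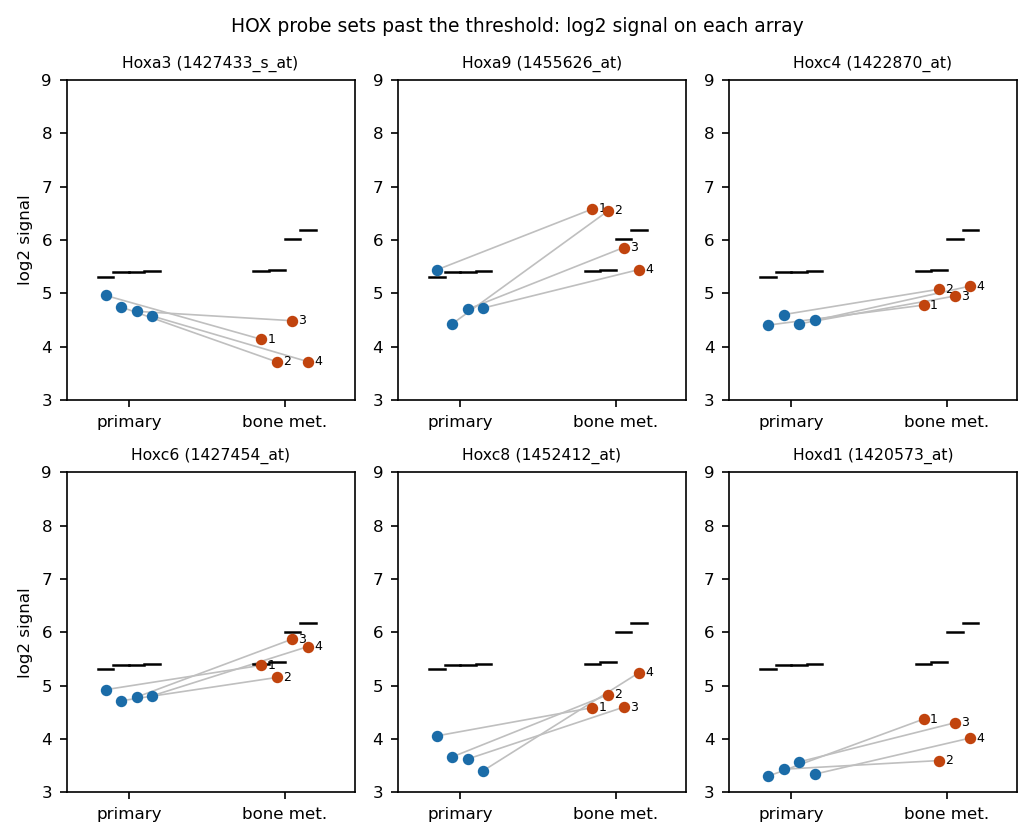
Log2 signal of the 6 called HOX probe sets on each primary array (blue) and bone metastasis array (orange, numbered by mouse), with lines joining the arrays of 1 mouse and black bars at the 95th percentile of the receptor probe sets on that array. All but Hoxa9 stay under the bar on all 8 arrays, and the 2 groups do not overlap in any panel.

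The probe sets with a clearer signal were not called. Hoxa5, known in lung and vertebral patterning, had log2 signals of 8.83, 8.21, 8.64 and 8.27 on primary arrays and 7.41, 7.75, 7.95 and 8.46 on metastasis arrays (1443803_x_at). Only metastasis array 4 reached the primary range. The log2 difference was -0.59 (SE 0.25, 95% interval from -1.16 to -0.03, limma adjusted p = 0.126), lower in 3 of 4 mice. Its other probe set (1448926_at) was at 7.78 to 9.33 on primary arrays and 6.09 to 8.18 on metastasis arrays, a difference of -1.30 (SE 0.52, limma adjusted p = 0.114). This second probe set was lowest on metastasis arrays 1 and 3, at 6.09 and 6.80, on which the summed signal of 7 epithelial markers was 833 and 1974, against 8148 and 12764 on arrays 2 and 4 and 12955 to 14089 on primary arrays. Probe set 1443803_x_at was instead lowest on metastasis arrays 1 and 2, at 7.41 and 7.75. Most of the epithelial sum came from Krt8 and Krt18. Krt19 was also lower on metastasis arrays 1 and 3, at 4.29 and 3.87, than on arrays 2 and 4, at 5.06 and 5.57. It was under the receptor level on all metastasis arrays. Krt5 was lowest on array 1, at 5.74, and Krt14 on array 2, at 6.22. Epcam and Cdh1, named after their values were seen, did not follow the sum. Epcam was 8.34, 8.45, 8.65 and 9.35 on metastasis arrays 1 to 4, and Cdh1 was lowest on array 4, at 5.74, with 6.96 to 7.89 on the other metastasis arrays. In bulk samples fewer cells of a type and less RNA per cell cannot be told apart, and the part of tumour cell content in the Hoxa5 values was not tested. Without metastasis array 4 the 1443803_x_at difference was -0.78 and passed (limma adjusted p = 0.0389). It also passed with metastasis arrays 3 and 4 left out, at -0.91 (limma adjusted p = 0.0344), a setting chosen after the values were seen. These were the 2 of 24 alternatives in which it passed. After quantile normalization the difference was -0.19 (limma adjusted p = 0.756). With metastasis arrays 1 and 3 left out it was -0.38 (0.355), and that of 1448926_at was -0.47 (0.456).

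Hoxa7, next along the cluster, had signals of 6.90, 6.46, 6.80 and 6.80 on primary arrays and 6.15, 6.72, 6.92 and 7.51 on metastasis arrays. The metastasis values spread to both sides of the primary ones, and the log2 difference of 0.09 (SE 0.27) had a 95% interval from -0.53 to 0.70. Hoxb3 had signals of 5.53, 5.44, 5.53 and 5.60 on primary arrays and 5.42, 5.65, 5.84 and 6.34 on metastasis arrays, with a difference of 0.29 (SE 0.20, limma adjusted p = 0.327). Hoxb4, a gene of blood stem cells, had signals of 5.85, 6.34, 6.38 and 6.07 on primary arrays and 6.58, 5.89, 7.06 and 7.15 on metastasis arrays. Array 2 stayed within the primary range. The Hoxb4 difference was 0.51 (SE 0.28, limma adjusted p = 0.235), and without metastasis array 2 it was 0.77 and passed (0.0329). It also passed within mice 3 and 4 alone, at 0.88 (limma adjusted p = 0.0424). With metastasis arrays 3 and 4 left out it was 0.08 (0.862). Of 5 blood progenitor markers Gata2 and Hlf rose, by 1.46 (SE 0.30) and 1.27 (SE 0.37), and Hlf did not pass with the block (limma adjusted p = 0.0692). The summed signal of the 5 was 358 to 708 on primary arrays and 699 to 1459 on metastasis arrays. Their part in the Hoxa9 and Hoxb4 values was not tested.

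The brightest Hoxc6 probe set (1427362_x_at) had signals of 5.90, 5.67, 5.91 and 5.80 on primary arrays and 5.64, 5.64, 6.33 and 6.82 on metastasis arrays, a difference of 0.29 (SE 0.27, limma adjusted p = 0.471). Hoxc9, a thoracic gene that represses neighbouring programmes in spinal motor neurons, was 6.32, 6.34, 6.54 and 6.34 on primary arrays and 6.64, 6.63, 7.02 and 7.89 on metastasis arrays. These groups did not overlap, but the difference of 0.66 (SE 0.27) did not pass (limma adjusted p = 0.125). Metastasis array 4 was the highest, and without it the difference was 0.38 and did not pass either (limma adjusted p = 0.112). Hoxd9 was close to constant on primary arrays, at 5.77, 5.79, 5.83 and 5.78, and 6.19, 5.67, 7.08 and 6.29 on metastasis arrays. Array 3 was the highest, and array 2 was below all primary arrays. The Hoxd9 difference was 0.51 (SE 0.27, limma adjusted p = 0.207).

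**Figure D4:**
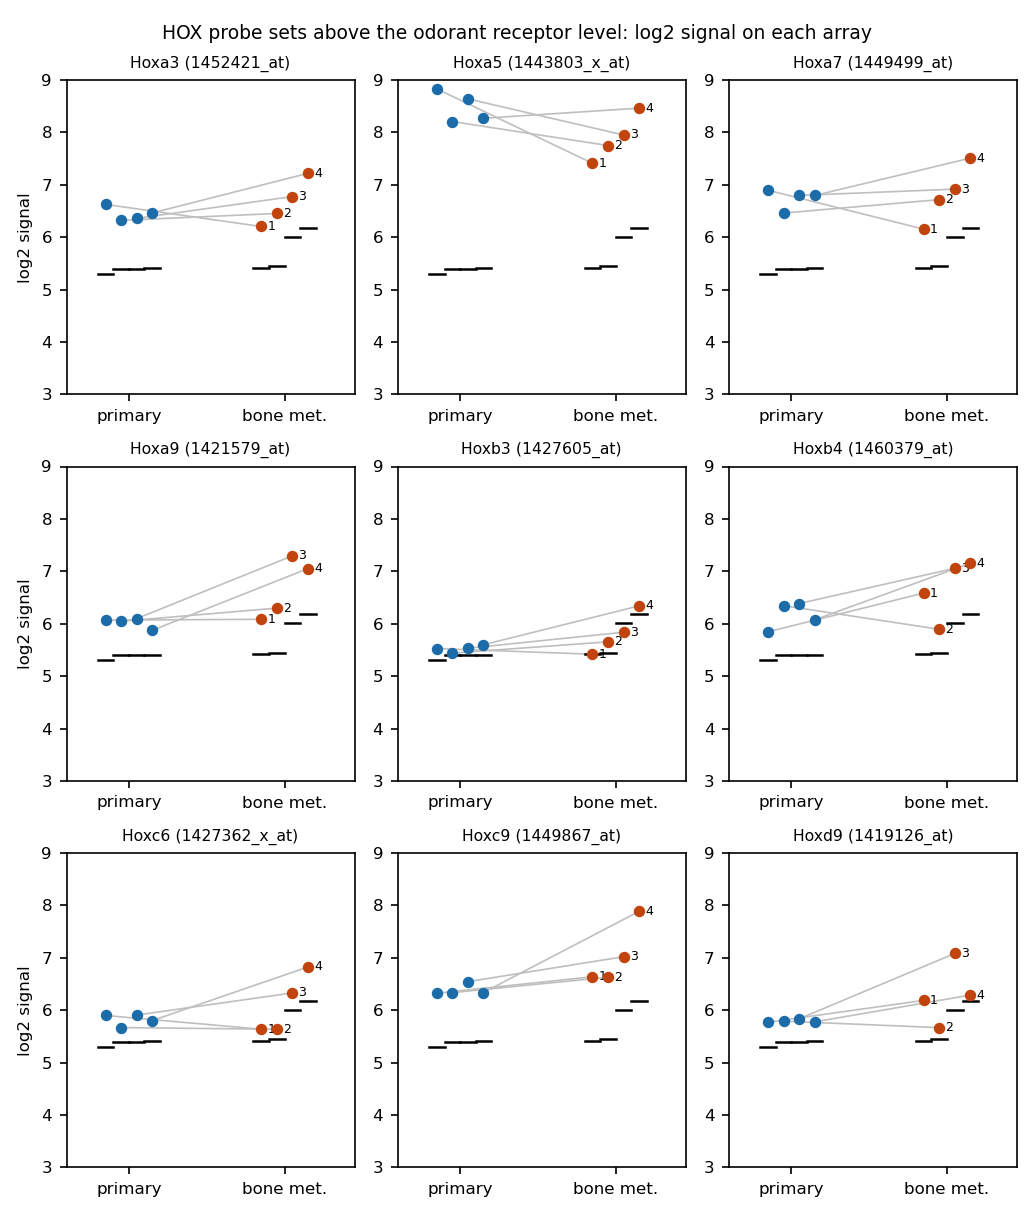
Log2 signal of the brightest probe set of the 9 HOX genes above the receptor level on all 4 arrays of a group, on each primary array (blue) and bone metastasis array (orange, numbered by mouse), with black bars at the receptor level. The metastasis arrays spread more widely than the primary arrays in all 9 panels, and metastasis array 4 is the highest of its group in 7 of the 9.

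The other 33 probe sets, of 26 genes, were not called, with differences from -1.30 to 0.81. At an unadjusted p under 0.05, 5 of them were higher and 1 was lower, and 26 of the 33 differences were above 0. The smallest adjusted p among them was that of Hoxb5, at 4.09, 4.17, 3.94 and 3.95 on primary arrays and 4.56, 4.21, 5.57 and 5.05 on metastasis arrays, named after its values were seen (0.81, SE 0.27, limma adjusted p = 0.0689). The posterior genes of the d cluster, which pattern the limbs and the tail end of the spine, were not called. The differences of Hoxd10, Hoxd11, Hoxd12 and the 2 probe sets of Hoxd13 ran from -0.01 to 0.15, with 95% intervals that stayed between -0.39 and 0.58. All of these probe sets were under the receptor level on all 8 arrays. Narrow intervals at such dim signal do not show whether the genes changed.

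By cluster, the counts were 1 higher and 1 lower of 16 probe sets in Hoxa, 0 of 11 in Hoxb, 3 higher of 11 in Hoxc and 1 higher of 10 in Hoxd. Over all probe sets 8.72% were called higher and 11.9% lower, which is the background for these counts and for those by position below. The 3 Hoxc calls were under the receptor level on every array. At an unadjusted p under 0.05, 4 of 11 Hoxb probe sets were higher (16.5% of all probe sets). The median log2 difference was 0.12 in Hoxa, 0.29 in both Hoxb and Hoxc, and 0.11 in Hoxd, and 11 of 11 Hoxb differences were above 0, as were 71 of 80 receptor probe sets and 20472 of all 34945. Of the Hoxb probe sets, 8 of 11 were never above the receptor level. By position, 1 probe set was higher and 1 lower of 11 in the anterior paralogue groups 1 to 3, 3 were higher of 20 in the central groups 4 to 8, and 1 was higher of 17 in the posterior groups 9 to 13. Their medians were 0.21, 0.24 and 0.18. Across the 48 probe sets, Spearman's rho of the difference with paralogue number was -0.09, and across the 33 genes by their brightest probe set it was -0.22. Probe sets of a gene share its transcripts and all share the same 8 arrays, so the rho is a description. The groups did not overlap in 9 probe sets higher in metastasis (14.3% of all probe sets) and 1 lower (14% of all), and 15 were higher and 1 lower in all 4 mice (22.9% and 20.1% of all).

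Probe sets of one gene did not give one answer. Of 11 genes with more than 1 probe set, 3 had a call (Hoxa3, Hoxa9 and Hoxc6), and 0 had all their probe sets called. The probe sets of Hoxa3 and Hoxd8 lay on both sides of 0, from -0.72 to 0.22 and from -0.02 to 0.10. The other 9 genes kept 1 sign over their probe sets. The HOX clusters hold overlapping and antisense transcripts, and a probe set whose ID ends in _s_at or _x_at can match several of them.

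The partners and regulators of HOX proteins were counted by the brightest probe set of each gene, for which 21.9% of all 18193 genes were called, 9.93% higher and 12% lower. Of 8 TALE cofactors, which bind DNA together with HOX proteins, Pknox1 was higher at 0.97 (SE 0.25) and the others did not pass. Pknox1 had signals of 7.66, 8.09, 7.64 and 7.79 on primary arrays and 9.27, 8.18, 9.02 and 8.57 on metastasis arrays, and did not pass with the block (limma adjusted p = 0.0707). Of 20 Polycomb genes, which keep HOX clusters silent, 2 were higher and 2 lower. Jarid2 and Phc2 were higher by 0.80 (SE 0.24) and 0.91 (SE 0.19), and Bmi1 and Rnf2 were lower, at -0.87 (SE 0.25) and -2.05 (SE 0.59). Of these only Jarid2 passed with the block (limma adjusted p = 0.0283, against 0.0519, 0.0887 and 0.0559 for Phc2, Bmi1 and Rnf2). Of 17 Trithorax and MLL genes, which keep HOX clusters active, Kmt2d and Kdm6a were higher, at 1.59 (SE 0.24) and 0.93 (SE 0.25). Ash2l and Dot1l were lower, at -1.34 (SE 0.29) and -0.74 (SE 0.15). Kdm6a did not pass with the block (limma adjusted p = 0.079).

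Retinoic acid sets HOX expression in the embryo, and of 15 genes of its pathway Rxrb was higher and Dhrs3 lower, by 1.19 (SE 0.19) and -1.42 (SE 0.30). Of 11 axial signal and CDX genes 0 were higher (1 at an unadjusted p under 0.05) and Smad2 and Smad3 were lower, at -1.91 (SE 0.44) and -0.79 (SE 0.23), of which Smad3 did not pass with the block (limma adjusted p = 0.0788). None of 24 other positional transcription factors was called by limma, with 1 higher and 1 lower at an unadjusted p under 0.05. Of 17 genes beside the HOX clusters 0 were higher (1 at an unadjusted p under 0.05) and 3 were lower. Mtx2, next to Hoxd, changed by -2.52 (SE 0.34), and Skap2 and Tax1bp1, beside Hoxa, by -2.19 (SE 0.39) and -1.69 (SE 0.39). These falls beside the clusters stood beside 0 lower calls in Hoxd and 1 in Hoxa, that of Hoxa3, and the difference between neighbours and members was not tested. The levels were also unlike. Mtx2, Skap2 and Tax1bp1 averaged 8.57, 11.61 and 10.86 on primary arrays. Among the members, 8 of 10 Hoxd and 9 of 16 Hoxa probe sets were above the receptor level on no array, where a fall can hardly be seen.

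Markers of neurons, B cells and granulocytes rose in the metastases, while those of several other tissues mostly did not pass. All 8 neuron markers rose, with a median difference of 3.82 and a summed signal of 198 to 216 on primary arrays and 4442 to 12453 on metastasis arrays. Of 6 cartilage markers 3 rose (summed signal 682 to 1061 against 1179 to 3074), and of 4 osteoblast markers 1 rose (145 to 195 against 238 to 428). Of 4 motor neuron markers 1 rose (0 with the block), and of 4 Schwann and glia markers 0 were called by limma (1 higher and 1 lower at an unadjusted p under 0.05). All 5 B lineage and 4 of 5 granulocyte markers rose, and 2 of 5 skeletal muscle markers did. Of 3 erythroid markers 0 were called (1 higher at an unadjusted p under 0.05). Of 5 fibroblast markers Dcn rose and Pdgfra fell (Pdgfra not with the block, limma adjusted p = 0.0652), and of 7 epithelial markers Krt19 fell. All 5 macrophage markers fell, with a summed signal of 14124 to 30315 on primary arrays and 1424 to 5215 on metastasis arrays. The summed signal of the 7 epithelial markers was 12955 to 14089 on primary arrays and 833 to 12764 on metastasis arrays. The lowest log2 signal of any probe set fitted was 2.57, so a signal above 0 does not show that a marker was present. The part of these markers in the HOX differences was not tested.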

How the data were processed

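RNA from 8 samples, 4 primary tumours and 4 bone metastases, was labelled with biotin in 2 amplification cycles and measured on one-colour arrays. The authors deposited log2 signals per probe set; the submitters' processing notes name RMA, without its version or any later scaling. Array medians of these deposited values were 5.52 to 5.63 over the 34945 probe sets with 1 gene symbol, 932 with several symbols, 9160 with none listed and 64 controls being left out. All 34945 were fitted with limma 3.58.1 (lmFit, eBayes; R 4.3.3) without a filter or block. The fit was tested on simulated data. Differences of log2 means carry standard errors and Benjamini-Hochberg adjusted p-values with a threshold of 0.05. Replicates were separate mice. The number of arrays limits the precision.

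The members and lists were chosen with earlier results of these data known. Values on every array are given for called HOX probe sets and for the brightest probe set of genes above the 95th percentile of receptor probe sets on all 4 arrays of a group; of each list, up to 4 called genes with the smallest adjusted p are named, and all of some marker lists. Pairing comes from the design text, by mouse: deviations of arrays of 1 mouse correlated at 0.16, 0.00, 0.03 and -0.10 in mice 1 to 4. Summaries, promoter searches and figures used Python 3.11.15, pandas 2.3.3, scipy 1.17.1 and matplotlib 3.10.9.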

Additional observations from a re-analysis of the deposited data

Results flagged for a closer look

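Among the probe sets whose values are given on every array, 30 groups of 4 arrays were checked for an array far from the others, and 1 was found. The Hoxc9 signal of primary array 3 was 6.54, while the other primary arrays lay between 6.32 and 6.34. Chance alone marks about 1 in 20 such groups.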

How the results depend on the processing

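The main fit gave 5 higher and 1 lower HOX calls, and the comparison was refitted under each alternative. The cause of the changes was not tested. Higher calls numbered 2 with the replicate block, 3 after quantile normalization, 8 with scaling to the 75th percentile, 3 with the brightest probe set of each gene and 0 of 11 without dim probe sets (limma, 2 at an unadjusted p under 0.05). The called Hoxa9 and Hoxc6 probe sets were not in the fit with the brightest probe sets. No called probe set was in the fit without dim probe sets, so no call could be kept there. Lower calls numbered 0 by limma with the block, with the 75th percentile, without dim probe sets, with the brightest probe set, with the mean of a gene's probe sets and without s, x and a probe sets (1 at an unadjusted p under 0.05 in each but the 75th percentile, which had 0). The called Hoxa3 probe set was itself left out without dim probe sets, with the brightest probe set and without s, x and a probe sets. Those settings therefore could not keep its call. In the mean it was averaged with the other Hoxa3 probe sets. Scaling to the array median, the mean of a gene's probe sets, leaving out s, x and a probe sets, a trended robust fit and array weights gave 4, 4, 5, 7 and 4 higher calls. Leaving out 1 array or 1 mouse gave 1 to 8 higher and 0 to 1 lower HOX calls, the 8 without metastasis array 1 and the 1 without primary array 2, 3 or 4 or mouse 3. Within mice 1 and 2 alone limma called 0 HOX probe sets (2 higher and 3 lower at an unadjusted p under 0.05) and 0 of all probe sets (3190 and 3590). Within mice 3 and 4 alone 7 were higher and 0 lower (0 lower at an unadjusted p under 0.05). After seeing the data, metastasis arrays 3 and 4 were left out, with 3 higher and 3 lower HOX calls, and arrays 1 and 3, with 2 and 1.

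Over all probe sets 3046 were higher and 4168 lower, so that 57.8% of calls were lower. The counts were 5676 and 3205 with scaling to the 75th percentile (36.1% lower), 1768 and 2207 with the brightest probe set, 1605 and 2307 with the mean of probe sets and 1970 higher without s, x and a probe sets. Leaving out 1 array or mouse gave 1034 to 3581 higher and 1285 to 4882 lower. The median difference of all probe sets was 0.40 and that of HOX probe sets 0.52 after 75th percentile scaling, and quantile normalization moved them to 0.04 and 0.10. No named HOX call changed sign under any of the settings that included its probe set. Arrays give no depth, and 32 of 48 HOX probe sets had no array above the receptor level, which limits their differences.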

Other observations

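Noncoding transcripts of the clusters, which are not HOX genes by symbol, were measured by 5 probe sets of the antisense genes Hoxa11os, Hoxb5os and Hoxd3os1. A Hoxd3os1 probe set (1460056_at) was 3.62, 3.55, 4.09 and 3.61 on primary arrays 1 to 4 and 4.41, 4.09, 4.49 and 5.16 on metastasis arrays 1 to 4. Its log2 difference was 0.82 (SE 0.24, limma adjusted p = 0.0441), it did not pass with the block (0.0661), and the other Hoxd3os1 probe set was at 0.12 (SE 0.23, limma adjusted p = 0.725). The called probe set was above the receptor level on no array. It was the only call among the 5, against 20.6% of all probe sets. Hoxb5os was 4.48, 5.18, 5.17 and 4.96 on primary arrays and 5.11, 4.84, 7.67 and 6.04 on metastasis arrays. Metastasis array 3 stood above the rest for Hoxb5os, as it did for Hoxb5 itself (5.57), while the difference of 0.97 (SE 0.56) did not pass (limma adjusted p = 0.255). The Hoxa11os probe sets were at -0.07 and 0.57 and were not called.

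The 3 probe sets with several HOX symbols entered no test. The Hoxb8 and Hoxb7 probe set averaged 4.65 ± 0.19 on primary and 4.91 ± 0.13 on metastasis arrays (log2 signal, SD, n = 4 each). For the Hoxd4 and Hoxd3 probe sets these were 5.53 ± 0.23 and 5.71 ± 0.53, and 3.80 ± 0.15 and 3.88 ± 0.20 (SD, n = 4 each).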
